A study of Homo sapiens with 8 samples.

Results

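The 38 genes described here encode the subunits of the proteasome and of its interferon-inducible form, the immunoproteasome, together with the proteasome activators. They were taken by symbol from the deposited tables of gene counts and FPKM, which hold 61552 genes, and the 5 genes PSMB8, PSMB9, PSMB10, PSME1 and PSME2 were set against the other 33. The RNA was from cells of MDA-MB-231, an established line of triple-negative breast cancer, and of MDA231-LM2 (here LM2), its derivative with a strong tendency to colonise lung. The cells of either line had a control hairpin RNA, with genotype labelled WT, or a hairpin against TAF7, a subunit of the general transcription factor TFIID, and each of these 4 groups had 2 libraries, numbered 2 and 3. A single TAF7 hairpin was used, so an effect of TAF7 and an effect of that hairpin on other genes cannot be told apart, and the labels do not say whether the hairpin cells were pools or clones. All cells were kept in the same serum-containing medium with no added interferon mentioned. Whether the 2 libraries of a group came from separate cultures is not in the labels, and p-values here reflect no more than the spread between libraries, which may be technical.

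The proteasome degrades proteins tagged with ubiquitin. Its 20S core is a barrel of alpha and beta rings, and PSMB5, PSMB6 and PSMB7 carry the active sites in most cells. The 19S regulatory particle, built from the PSMC ATPases and the PSMD non-ATPases, sits on the ends of the core, binds ubiquitin chains, unfolds the substrate and feeds it in. Under interferon, PSMB8, PSMB9 and PSMB10 take the places of the constitutive catalytic subunits in newly made cores, and PSME1 and PSME2 form the PA28 cap, which changes the peptides that are made for display on MHC class I.

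The promoters of the 5 genes are shown because they are the members known to respond to interferon, and the letters near their start sites can be compared. They come from RefSeq (GRCh38.p14) and run from 250 bases before to 50 bases after an annotated start site, 5′ to 3′ along the gene. Capitals mark matches, on either strand, to 3 motifs: GAAA, 2 free bases and GAAA again (an interferon-stimulated response element type), TTCNNNGAA (a STAT type, N being any base) and GGGA, 2 free bases and TTCC (an NF-kB type). PSMB8 has a second window, with no match, which is not printed, and the TAP1 window is included because it lies head to head with PSMB9. TAP1 also has a second window, with a match of the STAT type, which is not printed.
PSMB8 (chr6:32843998-32844297, minus strand): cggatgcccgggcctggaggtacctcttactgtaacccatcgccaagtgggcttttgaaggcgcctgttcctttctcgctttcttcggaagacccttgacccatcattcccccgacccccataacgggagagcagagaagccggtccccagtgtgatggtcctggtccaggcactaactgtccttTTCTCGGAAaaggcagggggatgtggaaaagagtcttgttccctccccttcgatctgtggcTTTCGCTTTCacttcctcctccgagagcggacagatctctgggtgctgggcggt
PSMB10 (chr16:67936801-67937100, minus strand): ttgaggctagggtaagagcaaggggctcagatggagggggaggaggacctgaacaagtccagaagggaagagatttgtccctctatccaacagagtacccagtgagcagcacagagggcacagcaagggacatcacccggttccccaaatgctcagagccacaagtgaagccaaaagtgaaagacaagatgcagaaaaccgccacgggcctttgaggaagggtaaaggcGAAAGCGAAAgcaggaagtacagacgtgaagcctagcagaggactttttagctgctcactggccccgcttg
PSME1 (chr14:24135944-24136243, plus strand): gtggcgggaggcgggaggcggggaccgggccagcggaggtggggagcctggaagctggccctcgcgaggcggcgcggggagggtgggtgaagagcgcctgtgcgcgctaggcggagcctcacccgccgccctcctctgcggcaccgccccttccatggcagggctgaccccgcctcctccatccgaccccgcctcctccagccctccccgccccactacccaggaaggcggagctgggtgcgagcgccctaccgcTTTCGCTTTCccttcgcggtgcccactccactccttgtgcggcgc
PSME2 (chr14:24146561-24146860, minus strand): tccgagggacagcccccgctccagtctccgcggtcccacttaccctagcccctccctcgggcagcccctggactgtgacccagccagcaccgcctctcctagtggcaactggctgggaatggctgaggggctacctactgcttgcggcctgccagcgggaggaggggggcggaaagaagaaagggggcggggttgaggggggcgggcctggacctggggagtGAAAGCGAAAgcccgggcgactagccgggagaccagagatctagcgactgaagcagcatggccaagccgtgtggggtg
PSMB9 (chr6:32853942-32854241, plus strand): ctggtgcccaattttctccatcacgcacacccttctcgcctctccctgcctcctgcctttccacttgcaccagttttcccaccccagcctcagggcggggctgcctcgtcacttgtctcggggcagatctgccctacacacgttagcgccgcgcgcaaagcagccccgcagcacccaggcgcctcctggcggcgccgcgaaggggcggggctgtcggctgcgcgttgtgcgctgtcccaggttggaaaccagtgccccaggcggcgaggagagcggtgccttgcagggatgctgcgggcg
TAP1 (chr6:32853655-32853954, minus strand): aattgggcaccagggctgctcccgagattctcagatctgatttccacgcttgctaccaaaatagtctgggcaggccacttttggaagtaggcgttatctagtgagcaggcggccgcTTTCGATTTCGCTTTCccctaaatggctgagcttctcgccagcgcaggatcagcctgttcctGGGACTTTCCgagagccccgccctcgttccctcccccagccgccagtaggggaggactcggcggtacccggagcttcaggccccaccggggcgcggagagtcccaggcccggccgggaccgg

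The response element type was matched in PSMB8, PSMB10, PSME1 and PSME2, and each of the 4 matches has the same letters, GAAAGCGAAA, on one strand or the other. Counted from the start site, the match begins 4 bases before it in PSMB8, 21 before in PSMB10, 28 before in PSME2 and 5 after in PSME1. These are 4 of the 6 windows of the 5 genes. The other members had 2 matches in 34 windows, in PSMB4 and PSMA4, which is 5.88%, and 3.57% of all 35116 promoter windows hold one. PSMB9's own window had no match. The TAP1 window, which overlaps it by 13 bases, has 2 overlapping matches, the nearer of them 354 bases upstream of the PSMB9 start site, and 1 match of the NF-kB type. Promoter windows were found for 33 of the 38 members, the 5 without being PSMA7, PSMB1, PSMB6, PSMB7 and PSMD4. The STAT type was in 1 of the 6 windows of the 5 genes (PSMB8), in 17.6% of the other members' windows and in 7.66% of all windows. The NF-kB type was in no member's window and in 1.61% of all windows. The motif TGACNNNGC (not in capitals above), the antioxidant-response type read by NFE2L1 and NFE2L2, was in 3 of the 6 windows, in 23.5% of the other members' windows and in 13.3% of all. The motifs were chosen with results of these data known. A match is a description of the sequence and not a binding site.

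The libraries held 17217776 to 20292291 counts each, so 1 read is 0.0488 to 0.0583 CPM (counts of a gene per 1000000 counts of the library, scaled here with edgeR's TMM factors). The 2 LM2 control libraries detected the most genes, 24762 and 24490 against 22296 to 23434 in the other 6. TAF7 itself fell to 58.5% of control in MDA-MB-231 and to 74.2% in LM2, and the drop was smaller in LM2 by 0.34 ± 0.09 on the log2 scale (edgeR quasi-likelihood, adjusted p = 0.00544). Differences between the lines in what the hairpin did to proteasome genes were therefore measured at unequal knockdown, and its part in them was not tested. In bulk RNA, fewer cells of a type and less RNA per cell cannot be told apart. Among 12 blood cell markers, MS4A1 and TYROBP were at 0 in all 8 libraries, and the 12 summed to 1.34 to 2.79 CPM, highest in the LM2 controls (2.59 to 2.79) and lowest in LM2 shTAF7 (1.34 to 1.74). The 6 fibroblast markers summed to 27.2 to 33.1 CPM in the LM2 controls and to 7.11 to 16.5 in the other groups. COL1A1 made most of the LM2 control sum (22.5 to 28.1 CPM), with PDGFRB at 4.62 to 4.74. There COL1A2 was at 0, and DCN, LUM and PDGFRA had at most 2 counts a library. The 4 endothelial markers were at 0 in no group. They summed to 4.36 to 4.84 CPM in MDA-MB-231 controls and 7.17 to 7.70 in MDA-MB-231 shTAF7. In LM2 the sum was 10.1 to 10.2 in controls and 6.81 to 7.08 in shTAF7. The sum had the same order of groups as PSMB9 below, but none of the 4 markers had it alone. PECAM1 was highest in MDA-MB-231 shTAF7 (6.54 to 6.82 CPM) and lowest in LM2 shTAF7 (0.949 to 1.16). KDR had 0.390 to 0.641 CPM in MDA-MB-231 shTAF7 and 5.30 to 5.33 in LM2 shTAF7. The mesenchymal markers VIM, CD44, MSN, AXL and CAV1, known for these lines, summed to 4824 to 5126 CPM in LM2 shTAF7 and to 3703 to 3892 in the other groups. Each was higher there than in the LM2 controls. Against the MDA-MB-231 controls, VIM (2103 to 2354 and 948 to 969 CPM) and CD44 were higher. MSN (660 to 669 and 894 to 898) and CAV1 were lower, and AXL overlapped. The part of any of these in the results was not tested.

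By FPKM, which allows levels to be compared between genes, most subunits were abundant and the immunoproteasome subunits were scarce. PSMA7, an alpha ring subunit, was the highest member at 215.82 to 325.18 FPKM over the 8 libraries, followed by the structural beta subunits PSMB4 (146.79 to 187.86) and PSMB3 (141.08 to 200.86) and the ATPase PSMC3 (124.48 to 191.49). The constitutive catalytic subunits PSMB5, PSMB6 and PSMB7 had mean levels of 130.3, 104.3 and 128.9 FPKM. PSMB8 had 7.55 to 13.31 FPKM, PSMB9 had 1.17 to 3.72 and PSMB10 had 0.75 to 3.03. The PA28 subunits were not scarce, at 68.44 to 121.53 FPKM for PSME1 and 29.51 to 57.12 for PSME2. By mean FPKM these 2 genes ranked 11 and 21 among the 38, and the 3 catalytic immunoproteasome subunits ranked 33, 35 and 36.

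PSMA1, PSMA2 and PSMA6 of the alpha ring were also very low. PSMA1 had 3.34 to 4.72 FPKM, PSMA6 had 0.38 to 0.8 and PSMA2 had 0.04 to 0.1, with 6 to 15 counts a library. The alpha ring holds 1 copy of each alpha subunit per ring, and its other 4 genes had 30.96 FPKM or more in every library. In GENCODE release 29, PSMA2 is covered to 99.7% and PSMA6 to 100% by a second gene model on the same strand (AC010132.3 and AL121594.1), which had 3 and 17 counts over all libraries against 83 and 576. A same-strand model also covers 11.1% of PSMA1 and 58.6% of PSMB10. How reads shared by overlapping genes were counted is not given in the sources used here, so the levels of these 4 genes may be understated, and that was not tested. In GENCODE 29, PSMB8 and PSMB9 share 568 bases on opposite strands, and PSMB9 also overlaps TAP1 by 8770 bases. There the PSMB9 gene begins at chr6:32844136, upstream of the start site of its window printed above (32854192). The strand setting is not given either, so reads from those overlaps cannot be told apart. The 39 pseudogenes named after members held 0.0768% as many counts as the members did.

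**Figure D1:**
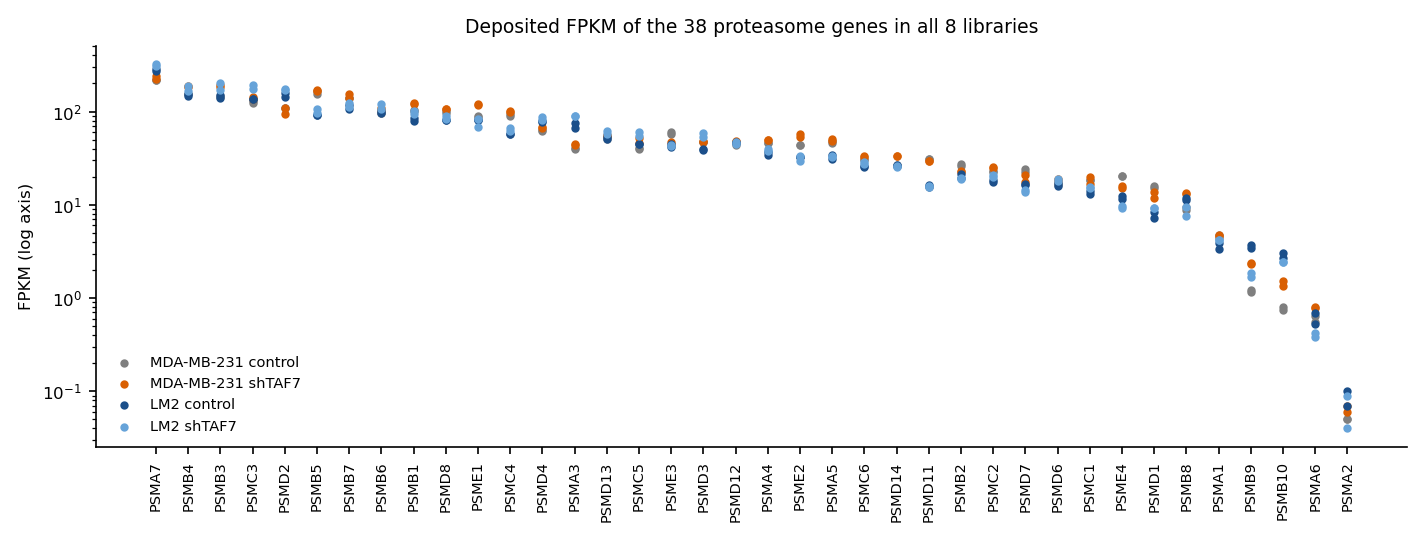
FPKM of each of the 38 members in each of the 8 libraries on a log axis, in order of mean FPKM, with 1 point per library coloured by group. PSMA7 lies highest, above 215 FPKM in every library, while PSMB8, PSMB9, PSMB10, PSMA1, PSMA2 and PSMA6 lie below 14 FPKM in every library.

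Together the 38 genes took 0.729% ± 0.00594 of all counts in MDA-MB-231 controls, 0.771% ± 0.00677 in MDA-MB-231 shTAF7, 0.668% ± 0.00634 in LM2 controls and 0.745% ± 0.0300 in LM2 shTAF7 (mean ± SD, n = 2 each). The share was larger with the TAF7 hairpin than with the control hairpin in both lines, with no overlap between libraries. The 5 inducible genes alone took 0.0349% ± 0.000515 and 0.0467% ± 0.00142 in the MDA-MB-231 groups and 0.0317% ± 0.000125 and 0.0286% ± 0.00319 in the LM2 groups, in the same order. No test was run on these shares. With 2 against 2 libraries the smallest exact two-sided permutation p is 0.333. Lack of overlap alone, here and below, therefore cannot reach the threshold of 0.05. The share of all genes whose groups do not overlap was not counted.

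The first comparison asked what the TAF7 hairpin did in MDA-MB-231. All 5 inducible genes rose, PSMB9 and PSMB10 most, while the other 33 were mixed. Of the 38 members, 11 rose and 5 fell (edgeR quasi-likelihood over all genes, Benjamini-Hochberg adjusted p under 0.05). In counts of genes, here and below, rose and fell mean called at that threshold. Of all 15923 tested genes, 12.6% were called higher and 12.9% lower (25.6% in either direction). The median log2 fold change of the 5 genes was 0.546, that of the other 33 was 0.115 and that of all tested genes was 0.00806.

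PSMB9, which replaces PSMB6, had 4.003 and 3.86 CPM in the control libraries and 7.76 in both shTAF7 libraries. It rose by 0.98 ± 0.17 on the log2 scale (± SE, adjusted p = 2.78e-05). PSMB8, which replaces PSMB5, had 29.95 and 32.73 CPM in controls and 45.60 and 45.85 with the hairpin, a rise of 0.55 ± 0.09 (adjusted p = 1.38e-05). The groups did not overlap for either gene, and the PSMB9 call held under all 17 alternatives. PSMB10, which replaces PSMB7, rested on few reads, 23 in each control library and 43 and 44 with the hairpin, or 1.20 and 1.29 CPM against 2.51 and 2.15. It rose by 0.90 ± 0.29 (adjusted p = 0.0197). That call was lost without control replicate 2 (0.84, adjusted p = 0.134), without control replicate 3 (0.94, adjusted p = 0.0805) and without shTAF7 replicate 2 (0.78, adjusted p = 0.102), and also with offsets for GC content and length, where the change was 0.455.

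Both PA28 genes rose as well. PSME1 had 151.8 and 157.8 CPM in controls and 210.3 and 213.7 with the hairpin, a rise of 0.45 ± 0.07 (adjusted p = 6.48e-06). PSME2 had 153.0 and 153.1 CPM against 192.4 and 202.5, a rise of 0.37 ± 0.07 (adjusted p = 6.74e-05). In both genes each shTAF7 library lay above each control library. The calls of PSMB8 and PSME1 were lost under 1 of 17 alternatives, limma on FPKM with no filter on low values (adjusted p = 0.0671 and 0.0629). The other 2 activators, which are not interferon-inducible, went the other way. PSME3 (PA28 gamma, a nuclear cap) fell from 304.1 and 291.3 CPM to 246.2 and 221.1, by 0.35 ± 0.07 (adjusted p = 0.000124). PSME4 (PA200, a cap that acts on histones) fell from 208.5 and 210.2 CPM to 165.6 and 157.2, by 0.38 ± 0.07 (adjusted p = 3.02e-05).

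The second comparison asked the same in LM2. There the immunoproteasome subunits did not rise with the hairpin, and PSMB9 and PSMB8 fell, while most subunits of the standard 26S proteasome rose. Of the 38 members, 23 rose and 3 fell, against 21.8% of tested genes called higher and 19.4% called lower (41.3% in either direction). None of the 5 inducible genes was among the 23. Their median log2 fold change was -0.111, against 0.273 for the other 33 and -0.0156 for all tested genes.

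PSMB9 had 11.17 and 11.98 CPM in the LM2 controls and 5.92 and 6.65 in LM2 shTAF7, and fell by 0.88 ± 0.15 (edgeR, adjusted p = 6.95e-06). PSMB8 had 39.96 and 37.67 CPM in controls and 27.41 and 35.43 with the hairpin, and fell by 0.30 ± 0.09 (adjusted p = 0.00797). The 2 shTAF7 libraries differed from each other more than the nearer one did from the controls, and the PSMB8 call was lost without LM2 shTAF7 replicate 2 (-0.13, adjusted p = 0.335), without LM2 control replicate 2 (-0.255, adjusted p = 0.0848) and with DESeq2 (-0.29, adjusted p = 0.0679). PSMB10 had 4.79 and 4.23 CPM in controls against 4.13 and 4.22, a difference of -0.11 ± 0.22 that was not called (adjusted p = 0.716). PSME1 had 139.2 and 139.6 CPM against 126.8 and 157.3, and PSME2 had 113.4 and 111.1 against 110.3 and 126.6. In both PA28 genes the hairpin libraries lay on either side of the controls, with differences of 0.03 ± 0.07 (adjusted p = 0.796) and 0.08 ± 0.07 (adjusted p = 0.405).

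The difference between the lines was tested directly as an interaction, the change in LM2 minus the change in MDA-MB-231. All 5 inducible genes were called lower, against 11.9% of all tested genes called lower, 13.9% called higher and 25.8% in either direction. The interaction was -1.86 ± 0.23 for PSMB9 (edgeR, adjusted p = 1.69e-08) and -0.85 ± 0.13 for PSMB8 (adjusted p = 2.29e-06). Both were called under all 16 alternative settings tried. For PSME1 it was -0.43 ± 0.10 (adjusted p = 0.00164), for PSMB10 -1.01 ± 0.37 (adjusted p = 0.0352) and for PSME2 -0.29 ± 0.10 (adjusted p = 0.0255). The PSMB10 call was lost under 8 of the 16 settings and the PSME2 call under 9, each including 6 of the 8 settings that leave out 1 library (all but MDA-MB-231 shTAF7 replicate 3 and LM2 control replicate 3 for PSMB10, all but MDA-MB-231 shTAF7 replicate 2 and LM2 shTAF7 replicate 3 for PSME2). The values without 1 library ranged from -0.884 to -1.05 for PSMB10 where it was lost (adjusted p up to 0.124, without MDA-MB-231 control replicate 2) and from -0.177 to -0.282 for PSME2 (adjusted p up to 0.194, without LM2 shTAF7 replicate 2).

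**Figure D2:**
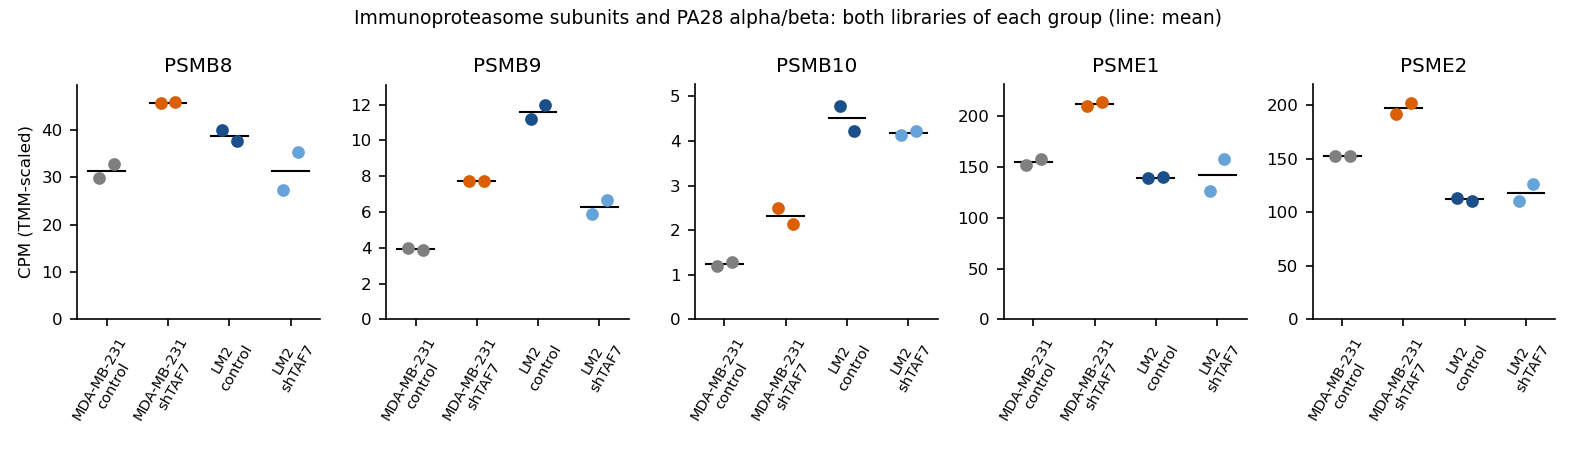
CPM of PSMB8, PSMB9, PSMB10, PSME1 and PSME2 in each library, 1 panel per gene with axes from 0, points for libraries and bars for group means. In MDA-MB-231 the shTAF7 libraries lie above the controls in all 5 panels, and in LM2 the PSMB9 shTAF7 libraries (5.92 and 6.65) lie below the controls (11.17 and 11.98). Lack of overlap between 2 and 2 libraries has an exact two-sided permutation p of 0.333.

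Because each immunoproteasome subunit competes with 1 constitutive subunit for its place in the core, the FPKM of each was divided by that of its counterpart. The ratio of PSMB8 to PSMB5 was 5.69% ± 0.107 in MDA-MB-231 controls, 7.86% ± 0.313 with the hairpin, 12.5% ± 0.458 in LM2 controls and 8.42% ± 0.758 in LM2 shTAF7 (mean ± SD, n = 2). The ratio of PSMB9 to PSMB6 was 1.23% ± 0.0331, 2.17% ± 0.113, 3.62% ± 0.0799 and 1.56% ± 0.0359 in the same order. The ratio of PSMB10 to PSMB7 was 0.558% ± 0.0289, 0.981% ± 0.164, 2.55% ± 0.0362 and 2.08% ± 0.158. In all 3 pairs both hairpin groups lay between the 2 control groups, above the MDA-MB-231 controls and below the LM2 controls, with no overlap of libraries. Both genes of a pair move its ratio. Mean PSMB5 was 160.3 FPKM in MDA-MB-231 controls and 92.3 in LM2 controls, and mean PSMB8 was 9.1 and 11.5. PSMB10's level carries the counting limit given above. The ratios are of mRNA levels, not of subunits in assembled cores, and no test was run on them. Their lack of overlap has the limit given above for so few libraries.

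**Figure D3:**
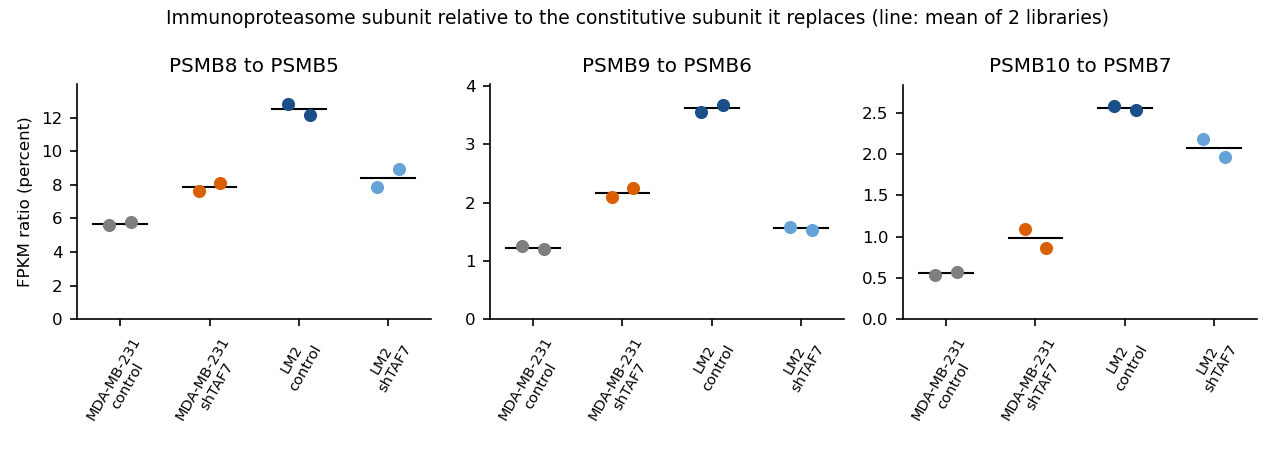
FPKM of each catalytic immunoproteasome subunit as a percent of that of its constitutive counterpart, per library (points) and group mean (bars), with axes from 0. The LM2 control libraries are highest in all 3 pairs, for PSMB8 to PSMB5 at 12.8 and 12.2 percent against 5.62 and 5.77 in MDA-MB-231 controls. PSMB5 itself had a mean of 92.3 FPKM in LM2 controls against 160.3 in MDA-MB-231 controls, and PSMB8 had 11.5 against 9.1.

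Among the other 33 members, the hairpin in MDA-MB-231 was followed by 6 rises and 5 falls, with 22 not called. That is 33.3% called, against 25.6% of all tested genes (12.6% higher and 12.9% lower). The structural beta ring subunits were all called, 3 higher and 1 lower. PSMB3 rose from 163.6 and 169.7 CPM to 214.0 and 223.9, by 0.39 ± 0.07 (edgeR, adjusted p = 5.69e-05), PSMB4 rose by 0.29 ± 0.07 (adjusted p = 0.00176) and PSMB1 by 0.26 ± 0.07 (adjusted p = 0.00299). The call of PSMB1 was lost without control replicate 2 (0.249, adjusted p = 0.0846) and without control replicate 3 (0.268, adjusted p = 0.0542). PSMB2 fell by 0.22 ± 0.07 (adjusted p = 0.0166), a call lost without control replicate 2 (-0.252, adjusted p = 0.0748), without control replicate 3 (-0.195, adjusted p = 0.19) and without shTAF7 replicate 3 (-0.225, adjusted p = 0.0629). None of the 7 alpha ring genes and none of the 3 constitutive catalytic genes was called.

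In the 19S particle in MDA-MB-231, 3 of 17 genes rose and 2 fell. That is 29.4% called, close to the 25.6% of all tested genes. PSMD14, the deubiquitinase that removes ubiquitin chains from substrates, rose from 185.0 and 191.4 CPM to 241.9 and 239.2, by 0.35 ± 0.07 (edgeR, adjusted p = 6.35e-05). The ATPase PSMC5 rose by 0.31 ± 0.07 (adjusted p = 0.000843), a call lost without shTAF7 replicate 3 (0.223, adjusted p = 0.0553). PSMD6 rose by 0.18 ± 0.07 (adjusted p = 0.0411), and its adjusted p was 0.0575 to 0.28 when any 1 of the 4 MDA-MB-231 libraries was left out. PSMD1, the largest scaffold subunit, fell from 245.4 and 239.0 CPM to 216.1 and 184.8, by 0.27 ± 0.07 (adjusted p = 0.00333), and that call was lost without control replicate 2 (-0.258, adjusted p = 0.0709) and without shTAF7 replicate 3 (-0.164, adjusted p = 0.176). PSMD7 fell by 0.26 ± 0.08 (adjusted p = 0.0135), lost without control replicate 3 (-0.219, adjusted p = 0.174) and without shTAF7 replicate 3 (-0.125, adjusted p = 0.409). Both falls in the 19S particle were thus lost without shTAF7 replicate 3. Without control replicate 2, control replicate 3 or shTAF7 replicate 3, fewer of all tested genes were called than with all libraries. The count of 5 members that fell in MDA-MB-231 was 3 without control replicate 2, 3 without control replicate 3 and 2 without shTAF7 replicate 3.

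In LM2 genes of every part of the standard proteasome rose. Of all tested genes there, 21.8% were called higher and 19.4% lower (41.3% in either direction). All 6 ATPases of the 19S base rose, with a median log2 fold change of 0.306, as did 7 of 11 non-ATPases (median 0.246). In the core, 4 of 7 alpha ring genes (median 0.251), 3 of 4 structural beta genes (median 0.364) and all 3 constitutive catalytic genes (median 0.259) rose. No gene of these 5 groups was called lower. The lowest log2 fold changes, neither called, were -0.475 in the alpha ring (PSMA6) and -0.116 among the non-ATPases (PSMD7). The only other member called lower was PSME4, which went from 115.5 and 123.5 CPM to 106.3 and 103.4. It fell by 0.19 ± 0.07 (edgeR, adjusted p = 0.0256). That call was lost when 1 of 4 libraries was left out (MDA-MB-231 control 2 or 3, LM2 control 3 or LM2 shTAF7 3) and by DESeq2 (adjusted p = 0.0537).

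PSMD3, a 19S scaffold subunit, changed most among them, from 183.7 and 189.7 CPM to 275.8 and 309.7, a rise of 0.65 ± 0.07 (edgeR, adjusted p = 1.2e-10). The ATPase PSMC3 rose from 300.9 and 296.2 CPM to 410.5 and 466.8, by 0.56 ± 0.07 (adjusted p = 7.97e-09). The ATPase PSMC5 rose from 185.6 and 183.6 to 243.6 and 279.5, by 0.50 ± 0.07 (adjusted p = 1.49e-07). In each of these genes both hairpin libraries lay above both controls. The alpha ring gene PSMA3 rose from 229.0 and 201.7 to 288.4 and 301.2, by 0.45 ± 0.07 (adjusted p = 4.96e-07), and PSMB3 from 171.5 and 158.8 to 207.7 and 251.3, by 0.47 ± 0.07 (adjusted p = 8.18e-07). Of the catalytic genes, PSMB6 rose by 0.33 ± 0.07 (adjusted p = 0.000157), PSMB5 by 0.26 ± 0.07 (adjusted p = 0.00278) and PSMB7 by 0.20 ± 0.07 (adjusted p = 0.0224). Without LM2 shTAF7 replicate 3 the calls of PSMB5 (0.182, adjusted p = 0.0569) and PSMB7 (0.122, adjusted p = 0.238) were lost, and that of PSMB7 also without LM2 control replicate 3 (0.133, adjusted p = 0.231). The 9 of the 33 that were not called were PSMA2, PSMA5, PSMA6, PSMB2, PSMD7, PSMD11, PSMD12, PSMD14 and PSME3.

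The size of this rise differed between edgeR and limma on FPKM. On log2 of the deposited FPKM plus 1, limma called 11 of the 38 members higher and 3 lower in LM2 (14.9% and 26% of the 12520 genes it tested), and the median of the other 33 was 0.162 with a median of -0.0663 over all genes. The 2 fits differ in model, values, genes tested and scaling together. RLE factors in edgeR, which like TMM adjust the library totals, left 23 members higher and a median of 0.275 for the 33. FPKM is scaled to the library total with no such factor, and this swap does not test that difference. The TMM factors were 1.03 and 1.04 in the LM2 control libraries and 0.960 and 0.935 in LM2 shTAF7. The cause of the difference was not tested. The 12 members whose rise was called by edgeR and not by limma were PSMA1, PSMA4, PSMA7, PSMB5, PSMB7, PSMC1, PSMC6, PSMD1, PSMD2, PSMD4, PSMD6 and PSMD8, and the 3 called lower were the same in both, PSMB8, PSMB9 and PSME4. None of the 5 inducible genes was called higher by either.

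The interaction was called higher for 8 members, all among the 33, and lower for PSMA6 and PSMD14 besides the 5 inducible genes. Over all tested genes the interaction was called higher for 13.9% and lower for 11.9%. Its values for single members follow. The interaction was 0.65 ± 0.10 for PSMD1 (edgeR, adjusted p = 3.83e-06), which fell in MDA-MB-231 and rose in LM2. For PSMD3 it was 0.64 ± 0.10 (adjusted p = 1.55e-06), with a change of 0.01 ± 0.07 in MDA-MB-231. PSME3 followed with 0.49 ± 0.10 (adjusted p = 0.000141), PSMC3 with 0.40 ± 0.10 (adjusted p = 0.00149) and PSMD2, a ubiquitin-binding scaffold, with 0.40 ± 0.10 (adjusted p = 0.00289, against 0.292 and adjusted p = 0.0872 by limma on FPKM). For 23 of the 33 no difference between the lines was called, which does not show that the effects were equal. Single libraries moved these counts. With any 1 library left out, the share of all tested genes whose interaction was called was also below the 25.8% of the main fit. The interaction was called higher for 5 members without MDA-MB-231 control replicate 2 or 3, and 14 members were called higher without LM2 shTAF7 replicate 2. Against 7 in all called lower, 4 were so without MDA-MB-231 control replicate 2, and 3 without MDA-MB-231 control replicate 3, LM2 control replicate 2 or LM2 shTAF7 replicate 2. On log2(FPKM + 1), limma called 4 members higher and 6 lower, against 8.04% and 13.9% of genes.

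**Figure D4:**
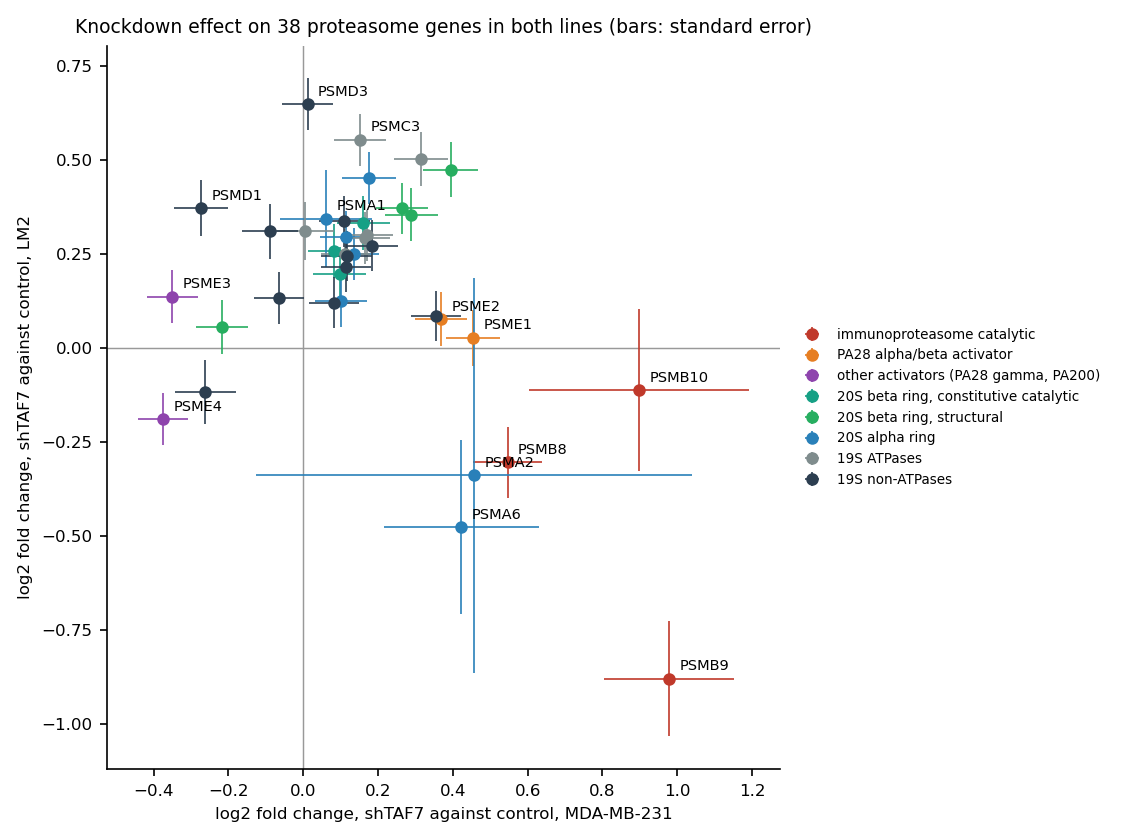
Log2 fold change of shTAF7 against control in MDA-MB-231 (x) and in LM2 (y) for each of the 38 members, with standard errors as bars and colours for the role in the complex. The 5 inducible genes lie at 0.37 or more on x and at 0.08 or less on y, and most of the other 33 lie above 0 on y.

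The lines with the control hairpin were then compared. LM2 had more of the catalytic immunoproteasome subunits and less of many standard subunits than MDA-MB-231. Of the 38 members, 7 were higher and 19 lower in LM2, against 32.2% of tested genes called higher and 32.1% called lower (64.4% in either direction). The share of members called in either direction, 68.4%, was close to the background. The other 33 had 4 higher and 18 lower, with a median of -0.314 against 0.0241 over all tested genes.

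PSMB10 was higher in LM2 by 1.86 ± 0.27 (edgeR, adjusted p = 3.56e-08) and PSMB9 by 1.56 ± 0.16 (adjusted p = 1.52e-11). From the values above, both LM2 controls exceeded both MDA-MB-231 controls in each. PSMB8 was higher by 0.31 ± 0.09 (adjusted p = 0.00367), a call lost when MDA-MB-231 control replicate 2 was left out (0.226, adjusted p = 0.109) and by DESeq2 (0.29, adjusted p = 0.0512). PSME2 was lower by a log2 fold change of -0.45 ± 0.07 (adjusted p = 3.43e-07), and PSME1 was not called (-0.15 ± 0.07, adjusted p = 0.0713), though it was under 7 of 17 alternatives. So the catalytic subunits and the PA28 genes did not differ between the lines in the same direction.

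Of the 33, PSMD1 and PSMD11, both 19S scaffold subunits, were lowest in LM2 relative to MDA-MB-231. PSMD1 had 245.4 and 239.0 CPM in MDA-MB-231 and 111.6 and 126.8 in LM2, a log2 fold change of -1.02 ± 0.07 (edgeR, adjusted p = 6.28e-17). PSMD11 had 213.8 and 218.3 against 105.7 and 110.2, a log2 fold change of -1.001 ± 0.068 (adjusted p = 8.63e-18). PSMB5, the chymotrypsin-like catalytic subunit, had 237.2 and 252.5 against 138.8 and 137.8, a log2 fold change of -0.82 ± 0.07 (adjusted p = 2.09e-14). PSME4 (-0.81 ± 0.07, adjusted p = 1.19e-14) and the ATPase PSMC4 (-0.69 ± 0.07, adjusted p = 2.06e-12) completed the 5 lowest. The 4 higher in LM2 were PSMA3 (0.82 ± 0.07, adjusted p = 2.36e-14), PSMD2 (0.43 ± 0.07, adjusted p = 1.34e-06), PSMA7 (0.35 ± 0.07, adjusted p = 2.47e-05) and PSMD4, a ubiquitin receptor (0.28 ± 0.07, adjusted p = 0.000402). Within the 20S core, therefore, PSMA3 and PSMB5 differed between the lines in opposite directions. PSMA3 shares its locus with the antisense gene PSMA3-AS1 (6648 bases) and with ARMH4 on the opposite strand, and strand-specific counting is not stated.

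With the TAF7 hairpin in both lines, 10 members were higher in LM2 and 17 lower, against 30.9% and 31.6% of tested genes (62.5% in either direction). This comparison has no sample in common with the one between controls. PSMB9, higher in LM2 with the control hairpin, was not called here (-0.30 ± 0.16, edgeR adjusted p = 0.0982), and PSMB8 was lower (-0.54 ± 0.09, adjusted p = 1.75e-06). PSMB10 was higher in LM2 here too, by 0.85 ± 0.24 (adjusted p = 0.00182). PSME1 (-0.58 ± 0.07, adjusted p = 2.6e-09) and PSME2 (-0.74 ± 0.07, adjusted p = 7.15e-13) were lower. Among the 33, PSMA3 (1.10 ± 0.07, adjusted p = 8.83e-19) and PSMD2 (0.83 ± 0.07, adjusted p = 7.47e-14) were the highest in LM2 and PSMA6 (-0.89 ± 0.22, adjusted p = 0.000472) and PSMD11 (-0.80 ± 0.07, adjusted p = 1.62e-14) the lowest, PSMA6 on few reads.

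**Figure D5:**
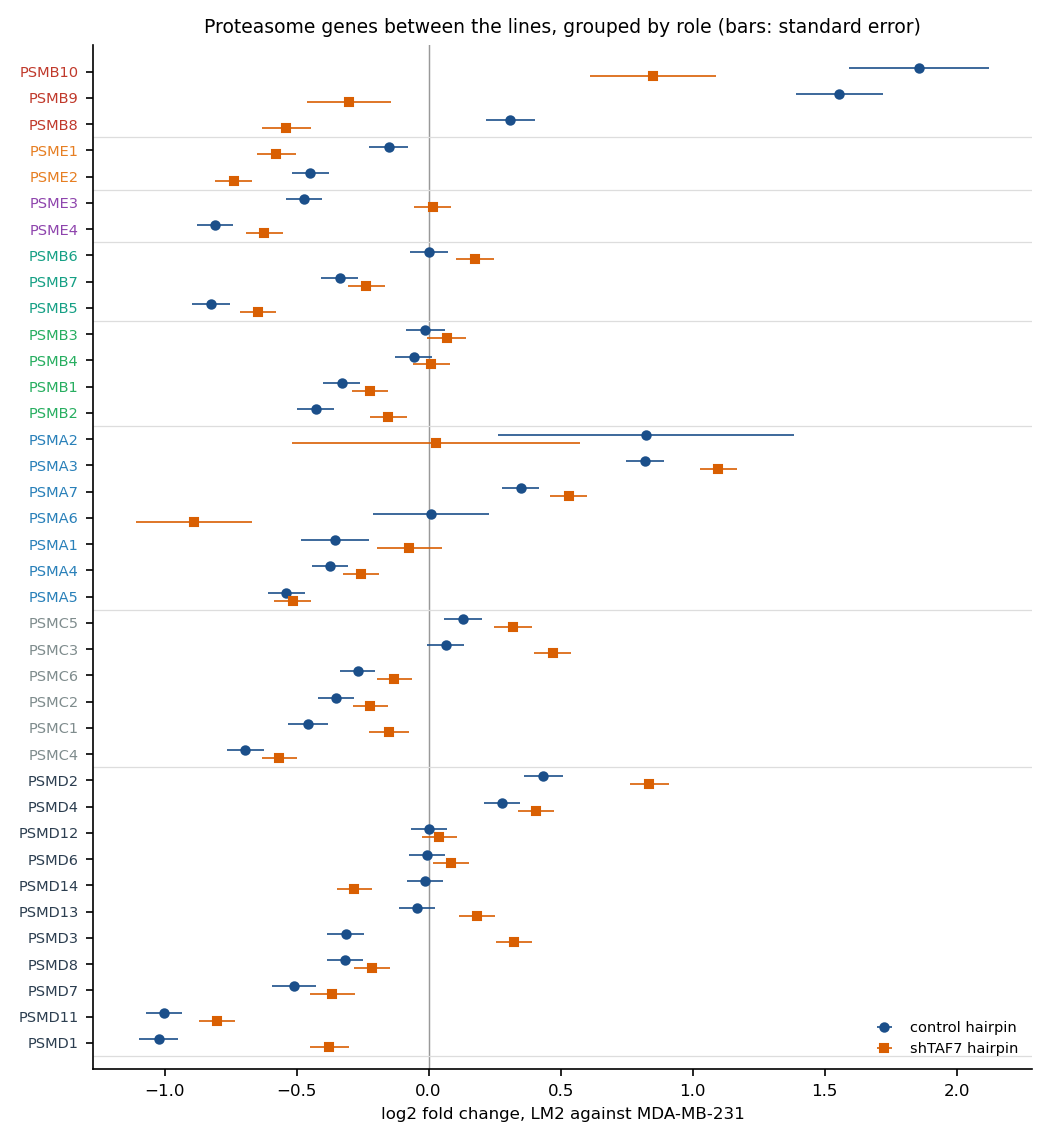
Log2 fold change of LM2 against MDA-MB-231 for each of the 38 members, with the control hairpin and with the TAF7 hairpin, and standard errors as bars. PSMB10 (1.86) and PSMB9 (1.56) are highest with the control hairpin, and PSMD1 (-1.02) and PSMD11 (-1.001) are lowest.

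Genes that assemble and assist the proteasome were read from lists that, like the members, were chosen with earlier results of these data known. Of 9 assembly chaperones, 6 rose and none fell in LM2 shTAF7 (median log2 fold change 0.326), and 3 rose and 1 fell in MDA-MB-231. Over all tested genes, as above, 21.8% were called higher and 19.4% lower in LM2, and 12.6% and 12.9% in MDA-MB-231. POMP, the maturation factor of the 20S core, rose in LM2 by 0.26 ± 0.07 (edgeR, adjusted p = 0.00232, against 0.128 and adjusted p = 0.108 by limma on FPKM) and was not called in MDA-MB-231 (0.11 ± 0.07, adjusted p = 0.262). No chaperone's interaction was called. Of 8 receptors, deubiquitinases and inhibitors, 5 rose in LM2 and none fell. SEM1, the smallest 19S subunit, rose in both lines, by 0.38 ± 0.08 in MDA-MB-231 (adjusted p = 0.000233) and 0.57 ± 0.08 in LM2 (adjusted p = 1.94e-07), and PSMF1, an inhibitor of the core, rose in LM2 by 0.39 ± 0.08 (adjusted p = 5.38e-05). Of 6 ubiquitin genes, 2 rose and 1 fell in each line, and with so few genes nothing is read from that beside the shares over all genes.

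NFE2L1 is the transcription factor that raises proteasome genes when proteasome activity is short, after release from the endoplasmic reticulum by VCP and cleavage by DDI2. It fell in both lines. It had 211.0 and 213.5 CPM in MDA-MB-231 controls against 191.5 and 171.1, a fall of 0.23 ± 0.07 (edgeR, adjusted p = 0.0127), which was lost without control replicate 2 (-0.24, adjusted p = 0.0974), without control replicate 3 (-0.227, adjusted p = 0.112) and without shTAF7 replicate 3 (-0.147, adjusted p = 0.235), and with GC and length offsets (-0.16, adjusted p = 0.0549). In LM2 it had 256.8 and 287.2 CPM against 173.6 and 170.3, a fall of 0.66 ± 0.07 (adjusted p = 1.22e-10). Of the 8 genes of its list, 5 fell and 1 rose in LM2 (19.4% and 21.8% of all tested genes) and 3 fell and none rose in MDA-MB-231 (12.9% and 12.6%). The 1 that rose in LM2 was VCP, from 299.0 and 304.2 CPM to 475.0 and 488.1, by 0.68 ± 0.07 (adjusted p = 2.65e-11). DDI2, listed with the 8 shuttle factors, fell by 0.44 ± 0.09 in MDA-MB-231 (adjusted p = 0.000117) and by 0.41 ± 0.10 in LM2 (adjusted p = 0.000531). The mRNA level says nothing of NFE2L1 cleavage.

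Interferon and NF-kB genes known to induce the immunoproteasome were also listed. Of 24, 18 were tested, and IFNB1, IFNG, IFNL1 and TNF were among those too low to test. In LM2 shTAF7, 9 fell and none rose (median log2 fold change -0.299), and in MDA-MB-231 5 rose and 4 fell. The interaction was called lower for 8 and higher for none. Of all tested genes, 19.4% fell and 21.8% rose in LM2, 12.6% rose and 12.9% fell in MDA-MB-231, and the interaction was lower for 11.9% and higher for 13.9%. IRF1, a factor known to bind response elements of the type printed above, had 28.29 and 23.63 CPM in LM2 controls against 13.45 and 16.58, a fall of 0.79 ± 0.12 (edgeR, adjusted p = 2.83e-07). In MDA-MB-231 it had 13.57 and 15.22 against 14.81 and 14.63 and was not called (0.03 ± 0.12, adjusted p = 0.884). Whether IRF1 acts on the members here was not tested. The interaction for IRF1 was -0.82 ± 0.17 (adjusted p = 0.000206).

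STAT2 moved in opposite directions. It rose in MDA-MB-231 from 9.84 and 9.72 FPKM to 10.95 and 12.72, by 0.29 ± 0.08 (edgeR, adjusted p = 0.00293), lost without control replicate 2 (0.295, adjusted p = 0.0509), control replicate 3 (0.279, adjusted p = 0.059) or shTAF7 replicate 3 (0.191, adjusted p = 0.145). It fell in LM2 from 16.68 and 17.17 FPKM to 10.83 and 9.95, by 0.58 ± 0.07 (edgeR, adjusted p = 1.37e-08). These levels are deposited FPKM, while the log2 changes are edgeR's on scaled counts. In CPM, mean STAT2 was 59.8 in MDA-MB-231 controls and 73.1 with the hairpin, and 101 and 68.0 in LM2. IFNAR1, of the same list, fell in MDA-MB-231 from a mean of 62.0 CPM to 47.6, by 0.38, a call kept under all 17 alternatives. Between the controls, IRF1 (0.85 ± 0.12, adjusted p = 1.18e-08) and NLRC5 (1.30 ± 0.16, adjusted p = 1.19e-09), the activator of class I genes, were higher in LM2 than in MDA-MB-231 on the log2 scale. NLRC5 fell in LM2 by 0.44 ± 0.15 (adjusted p = 0.0141), lost without LM2 control replicate 3 (-0.301, adjusted p = 0.218), without LM2 shTAF7 replicate 3 (-0.293, adjusted p = 0.212) and by DESeq2 (-0.424, adjusted p = 0.143).

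Of 15 genes for class I peptide supply and loading, 9 fell and none rose in LM2 shTAF7 (median log2 fold change -0.389), against 3 higher and 3 lower in MDA-MB-231, and the interaction was called lower for 8 and higher for 2. The shares over all tested genes were 19.4% lower and 21.8% higher in LM2, 12.6% higher and 12.9% lower in MDA-MB-231, and 11.9% lower and 13.9% higher for the interaction. TAP1, the peptide transporter that lies next to PSMB9, had 15.1 and 16.7 CPM in LM2 controls and 9.27 and 9.03 in LM2 shTAF7, a fall of 0.80 ± 0.13 (edgeR, adjusted p = 1.34e-06). In MDA-MB-231 it had 19.5 and 23.3 against 22.0 and 22.6 and was not called (0.06 ± 0.11, adjusted p = 0.731), while its neighbour PSMB9 rose. In the control lines too, TAP1 was lower in LM2 (-0.43 ± 0.11, adjusted p = 0.000945, lost at -0.322 when MDA-MB-231 control replicate 3 was left out, adjusted p = 0.0509) where PSMB9 was higher. Between the controls, 11 of the 15 genes were called higher in LM2 and 3, TAP1 among them, lower (median log2 fold change 0.532). The shares over all tested genes were 32.2% higher and 32.1% lower. Of 6 cytosolic peptidases, which trim what the proteasome releases, 3 fell and none rose in MDA-MB-231, against 12.9% and 12.6% of all tested genes. In LM2 2 rose and none fell, and these 33.3% of the list were below the 41.3% of all tested genes called there.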

How the data were processed

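RNA of 8 libraries, enriched for mRNA, was measured by sequencing. The deposited read counts per gene are whole numbers without normalization, and the authors' FPKM values, also deposited, are scaled to gene length and library total, as judged from the values. STAR 2.7.10a and build hg19 are named in the submitters' processing notes, with no step given. The sources used here give no counting program, strand setting or annotation. GENCODE 29 (GRCh38) served for GC content, transcript length and gene overlaps, and RefSeq GRCh38.p14 for promoters, so no coordinate printed is one the authors used.

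A quasi-likelihood model with 1 mean per group (R 4.3.3, edgeR 4.0.16, filterByExpr, TMM, 15923 genes, 4 residual degrees of freedom) was fitted to the counts of all 8 libraries, and p-values were adjusted over all tested genes (threshold 0.05). The estimate of the spread was shared by the 4 groups. The 2 libraries of a group differed more in the shTAF7 groups than in the controls. Chi-square per degree of freedom was 7.24 in MDA-MB-231 shTAF7 and 6.76 in LM2 shTAF7. It was 2.34 in MDA-MB-231 controls and 3.72 in LM2 controls. All 38 members passed the filter. Alternatives used limma 3.58.1 on log2(FPKM + 1) or log2(FPKM + 0.1) for genes with FPKM of at least 1 in 2 libraries or with no such filter, DESeq2 1.42.0, RLE scaling, no count filter, GC and length offsets (15664 genes, 98.4%), a replicate block, only the 4 libraries compared, and each library left out. Depth is given with the results.

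The members, gene lists and motifs were chosen with earlier results of these data known. The 5 inducible genes are given in full. Of the others, the called member with the largest absolute log2 fold change in each role group, the 5 highest and 5 lowest, and up to 4 called genes of a related list could be named, besides TAP1, IRF1, NLRC5 and NFE2L1. Another gene that the rule names, and a marker, are not reported here. Further members were named after their values were seen, to account for every call in a role group. So were POMP, SEM1, PSMF1, DDI2, VCP, STAT2 and IFNAR1 where they fall outside that rule.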

Additional observations from a re-analysis of the deposited data

Results flagged for a closer look

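For 15 members the change with the TAF7 hairpin differed between LM2 and MDA-MB-231 by a test of the difference itself (edgeR's interaction term, Benjamini-Hochberg adjusted over 15923 genes, of which 25.8% were called). The value is the log2 fold change in LM2 minus that in MDA-MB-231.

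It was negative for 7. For the catalytic immunoproteasome subunits it was -1.86 for PSMB9 (adjusted p = 1.69e-08), -0.85 for PSMB8 (adjusted p = 2.29e-06) and -1.01 for PSMB10 (adjusted p = 0.0352). For the PA28 subunits it was -0.43 for PSME1 (adjusted p = 0.00164) and -0.29 for PSME2 (adjusted p = 0.0255). For the alpha ring gene PSMA6 it was -0.90 (adjusted p = 0.0268), on 46 to 105 counts a library, and neither line's own change was called (0.42 and -0.48). For the 19S deubiquitinase PSMD14 it was -0.27 (adjusted p = 0.0295), from 0.35 in MDA-MB-231 and 0.09 in LM2.

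It was positive for 8. Among 19S subunits it was 0.65 for PSMD1 (adjusted p = 3.83e-06), 0.64 for PSMD3 (adjusted p = 1.55e-06), 0.40 for PSMD2 (adjusted p = 0.00289), 0.40 for PSMC3 (adjusted p = 0.00149) and 0.31 for PSMC1 (adjusted p = 0.0287). The activator PSME3 had 0.49 (adjusted p = 0.000141), from -0.35 in MDA-MB-231 and 0.14 in LM2. In the core it was 0.28 for PSMA3 (adjusted p = 0.0313) and 0.28 for PSMB2 (adjusted p = 0.0351).

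When 1 library was left out, 7 of the 15 calls were lost at least once. They were those of PSMB10 and PSME2, as given in the report, PSMA6 (adjusted p up to 0.174, at -0.69 without LM2 control replicate 2), PSMD14 (up to 0.197, at -0.234 without MDA-MB-231 control replicate 2), PSMA3 (up to 0.138, at 0.27 without MDA-MB-231 control replicate 3), PSMB2 (up to 0.18, at 0.219 without LM2 control replicate 2) and PSMC1 (up to 0.26, at 0.18 without MDA-MB-231 shTAF7 replicate 3). TAF7 itself fell less in LM2, by 0.34 on the same scale (adjusted p = 0.00544), and its part in these differences was not tested.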

How the results depend on the processing

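Of 3168 values of the 38 members under the alternatives, 2933 stayed on their side of the threshold, 180 lost a call, 54 gained one and 1 reversed. Of the 2933, 139 were uncalled values whose sign changed. The 1 reversal was PSMD6 between the control lines, from -0.01 to 0.165 with GC and length offsets (adjusted p = 0.0189), and the cause was not tested.

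The members that rose in MDA-MB-231 were 4 in place of 11 by limma on log2(FPKM + 1) with no FPKM filter, and those that fell were 3 in place of 5 by limma on log2(FPKM + 0.1) and 2 with no FPKM filter. In LM2 the 23 that rose were 11 by limma with either pseudocount and 6 with no filter, where 32805 genes were tested, and the 3 that fell were 1 by DESeq2. For the interaction, the 8 called higher were 4 by limma on log2(FPKM + 1), 3 on log2(FPKM + 0.1) and 1 with no filter, and the 7 called lower were 4 by DESeq2 and 4 by limma with no filter. With no FPKM filter, the share of all tested genes called was 3.42% in MDA-MB-231, 12.4% in LM2 and 5.35% for the interaction. In the main fit it was 25.6%, 41.3% and 25.8%. On log2(FPKM + 0.1) it was 22.9%, 39.8% and 20.7%. On log2(FPKM + 1) with the filter it was 40.9% in LM2 and 21.9% for the interaction. DESeq2 called 30.4% in LM2 and 20% for the interaction. The cause of these changes was not tested.

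With each library left out in turn, where a lone library is assumed to vary like the other groups, the members called higher and lower were 8 to 13 and 2 to 6 with the hairpin in MDA-MB-231, 20 to 24 and 2 to 3 with it in LM2, 6 to 7 and 18 to 20 between control lines, 8 to 11 and 14 to 18 between shTAF7 lines, and 5 to 14 and 3 to 6 for the interaction. The share of all tested genes called moved as well. It was lower in these fits than with all libraries, except for the hairpin in MDA-MB-231 without an LM2 shTAF7 library. Libraries of different groups with the same number did not deviate together (r from -0.0618 to 0.0214 over 15923 genes), so no pairing by number showed in these values. That does not exclude that libraries with the same number were handled together. With a replicate block the counts were 11 and 5 for the hairpin in MDA-MB-231, 23 and 3 for it in LM2, 7 and 19, 10 and 17 between lines, and 8 and 7 for the interaction, as without it. Depth limits PSMA2, PSMA6, PSMB9 and PSMB10, which had 6 to 15, 46 to 105, 69 to 215 and 23 to 87 counts a library. The catalytic pair ratios and shares of counts had no alternatives run.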
